A study of Arabidopsis thaliana with 30 samples.

Results

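The genes described here are 10 regulators of flowering time in Arabidopsis thaliana, taken by name from a table of 27417 genes: FT (AT1G65480), TSF (AT4G20370), CO (AT5G15840), FLC (AT5G10140), SVP (AT2G22540), AGL24 (AT4G24540), SOC1 (AT2G45660), FUL (AT5G60910), SPL3 (AT2G33810) and SPL4 (AT1G53160). Of these 10 genes, 9 passed the filter on low counts together with 19249 genes in all, and TSF did not. In the RefSeq annotation SOC1 has the symbol AGL20 and FUL the symbol AGL8.

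The measurements are RNA-seq read counts from whole shoots of wild-type Col-0 plants. Seedlings spent 10 days on MS medium at 22°C, with 16 h of light and 8 h of darkness, and then 5 days in ceramic granular soil. Roots were then exposed for 3 days to 10 mM ethanol or, in the control arm, to water, after which watering of both arms stopped. Shoots were taken on the day watering stopped (0 DAD, days after drought onset) and at 1, 3, 5 and 7 DAD, which gives 5 ethanol groups and 5 water groups of 3 libraries each, 30 libraries in all. All groups share the genotype and the growth conditions, and every harvest after 0 DAD came from plants without water. The later days have no watered libraries, so that drought, plant age and time of day cannot be told apart between days. Nothing in the labels says that the 3 libraries of a group came from separate cultivations, and the p-values measure the spread between these libraries.

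Arabidopsis flowers when signals from leaves and from the shoot apex converge on a small set of transcription factors. Long days let CO, a B-box protein, activate FT in the phloem companion cells of leaves, and the FT protein travels to the apex as florigen. The MADS-box repressors FLC and SVP hold back FT and SOC1, whereas the MADS-box factors SOC1, AGL24 and FUL and the age-dependent SPL factors promote the transition.

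Library totals lay between 3625884 and 14735127 counts, with the lowest in ethanol 0 DAD replicates 1 and 2. Values per library are given as CPM, the counts of a gene per 1000000 counts of the TMM-scaled total of tested genes in that library. They are comparable between libraries for 1 gene, but not between genes, because they are not set per transcript length. The leaf markers RBCS1A, LHCB1.3, LHCB2.1, CAB3 and PSBO1 were present in every library. Of the 6 root markers, PLT1, EXPA7, CASP1, COBL9 and WOX5 were at 0 in 16 to 29 of the 30 libraries, and PYK10 was detected in all of them.

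The first question was whether ethanol-treated shoots differed from water-treated shoots in these genes at each harvest. At 7 DAD, 3 of the 9 tested genes were higher in ethanol (SVP, AGL24 and SOC1) and 2 were lower (FUL and SPL4). Across all tested genes at that day, 32% were called higher in ethanol and 28.6% lower, so that most tested genes differed and the 5 calls stand against that background. The summed leaf markers also differed at that day, with 30700 to 35500 CPM in ethanol, against 4750 to 8420 CPM in water, and their part in these calls was not tested. A gene is called when its adjusted p-value in the edgeR quasi-likelihood test is under 0.1. At 0, 1, 3 and 5 DAD none of the 9 genes was called, beside 1.71%, 0%, 0.992% and 0% of all tested genes. The same test gave an unadjusted p-value under 0.05 for 1 of the 9 genes at 0 DAD (AGL24) and for 1 at 1 DAD (SPL4), and for 0 at 3 and 5 DAD. Of all 19249 tested genes, 2433, 587, 1457 and 783 had such a p-value at 0, 1, 3 and 5 DAD. On these days the libraries of the arms did not overlap for AGL24 and SOC1 at 0 DAD, AGL24 and SPL4 at 1 DAD, and SVP at 5 DAD. Such separations were not counted over all tested genes, so whether they are unusual cannot be said. In whole shoots, fewer cells of a type and less RNA per cell cannot be told apart, here and in every result that follows.

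**Figure D1:**
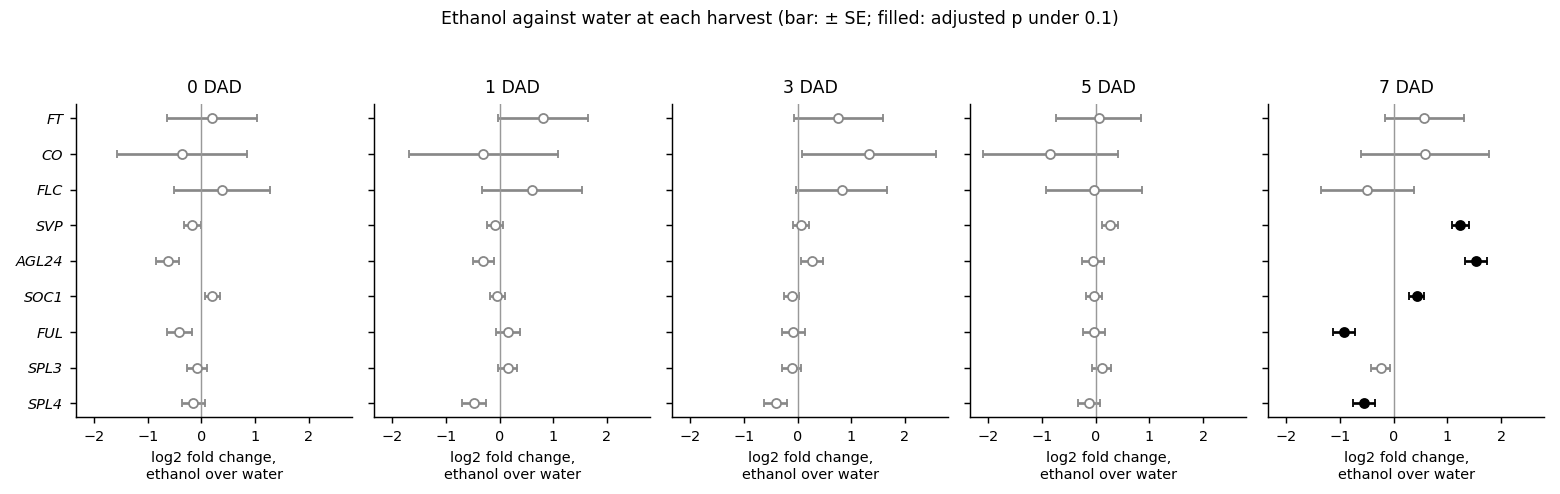
Log2 fold change of ethanol over water (horizontal axis) for the 9 tested flowering time genes on the 5 harvest days, with bars of ± 1 standard error and filled points for an adjusted p-value under 0.1. Filled points appear at 7 DAD alone, with AGL24 at 1.53, SVP at 1.24 and SOC1 at 0.43 on the right, and FUL at -0.92 and SPL4 at -0.55 on the left.

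SVP, the repressor that acts together with FLC, had at 7 DAD 114, 121 and 124 CPM in the ethanol libraries, against 69.8, 46.3 and 36 CPM in the water libraries. All 3 ethanol libraries were above all 3 water libraries. The log2 fold change was 1.24 (SE 0.16, adjusted p-value 9.73e-08), or 2.36-fold. At 5 DAD the same gene had 162, 152 and 140 CPM in ethanol, against 136, 116 and 126 CPM in water. These groups did not overlap either, but the log2 fold change, 0.26 with SE 0.15, was not called (adjusted p-value 1), and at 5 DAD 0% of all genes were.

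AGL24, the closest relative of SVP among these genes and a promoter of flowering, had 23.6, 18.1 and 18.6 CPM in ethanol at 7 DAD, against 7.92, 6.06 and 6.84 CPM in water. The lowest ethanol library stood far above the highest water library. In the edgeR test its log2 fold change was 1.53 (SE 0.21, adjusted p-value 5.62e-07), or 2.88-fold. Directly after the pretreatment, at 0 DAD, the order of the arms was the opposite one, with 12.8, 12.7 and 12.7 CPM in ethanol, against 21.5, 21.6 and 16 CPM in water. The groups did not overlap at 0 DAD, and the log2 fold change was -0.63 with SE 0.21, which missed the threshold of the edgeR test after adjustment (unadjusted p-value 0.00564, adjusted p-value 0.172). In ethanol 0 DAD replicates 1 and 2, the value rests on 47 and 48 counts.

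SOC1 integrates the flowering pathways at the apex and had 197, 233 and 232 CPM in ethanol at 7 DAD, against 159, 136 and 196 CPM in water. The groups were separated by a small gap, between ethanol replicate 1 and water replicate 3. On the log2 scale the difference was 0.43 (SE 0.14, adjusted p-value 0.00858), or 1.35-fold. At 1, 3 and 5 DAD the log2 fold changes of SOC1 lay between -0.11 and -0.03, none of them called.

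FUL, which acts with SOC1 in meristem identity and is known from fruit development, had 45.4, 48.5 and 43.9 CPM in ethanol at 7 DAD, against 78.3, 78.5 and 103 CPM in water. No ethanol library reached the lowest water library. Its log2 fold change was -0.92 (SE 0.20, adjusted p-value 0.000269), a ratio of 0.53. The calls of SVP, AGL24, SOC1 and FUL at 7 DAD held in all 14 alternatives of scaling, filter, test, threshold and left-out library. Ethanol and water were close in FUL at 5 DAD, at 28.5 ± 1.3 CPM in the ethanol libraries, against 29 ± 5.81 CPM in the water libraries (SD, n = 3 each).

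SPL3 and SPL4 encode SBP-box factors of the age pathway, whose transcripts are targets of the microRNA miR156. The microRNA and the sites that match it are shown because they link these 2 members to other SPL genes that were measured. They were read from RefSeq TAIR10.1 and are written 5′ to 3′ as RNA, with capitals for the seed of the microRNA (bases 2 to 8) and for the 7 bases that lie opposite it.
miR156a: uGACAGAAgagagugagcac
SPL3 site: uugcuuacucucUUCUGUCa
SPL4 site: cugcucucucucUUCUGUCa
SPL9 site: gugcucucucucUUCUGUCa
The seed match is complete in all 3 sites. Over its 20 bases the site has 2 mismatches to the complement of miR156a in SPL3, 2 in SPL4 and 1 in SPL9. SPL15 shares the SPL9 site base for base, and G-U pairs are counted as mismatches. These counts refer to miR156a alone. Among the other annotated miR156 loci, miR156i is the exact complement of the SPL4 site and miR156j that of the SPL9 site. The MIR156i gene overlaps SPL4 on the other strand, so its match to the SPL4 site may be the same bases read on both strands. That match is therefore not separate evidence of targeting. In SPL3 and SPL4 the site lies in the 3′ UTR, in SPL4 in 1 of the 3 annotated transcripts, and in SPL9 in the coding sequence. A stretch with at most 2 mismatches was found in transcripts of 10 of 27562 protein-coding genes (0.0363%). A match is a description of the sequence, and miR156 itself was not analysed here.

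SPL4 had 20.2, 24.1 and 18.7 CPM in ethanol at 7 DAD, against 23.2, 27.8 and 41 CPM in water. The groups overlapped, since ethanol replicate 2 was above water replicate 1. The log2 fold change, -0.55 with SE 0.21, was called (adjusted p-value 0.0255) in the fit of all libraries. Without water 7 DAD replicate 3, the highest library, and without ethanol 7 DAD replicate 3, the call was lost, and the values nearest 0 and furthest from it over all alternatives were -0.28 and -0.72. Scaled by library totals rather than TMM it was -0.33 (adjusted p-value 0.176). At 1 DAD SPL4 had 11.8, 11.4 and 8.41 CPM in ethanol, against 13.2, 15.3 and 15.8 CPM in water, with no overlap and a log2 fold change at -0.48 (edgeR, unadjusted p-value 0.0375, adjusted p-value 1).

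SPL3 was not called at any day between the arms. At 7 DAD it had 57.1, 62.1 and 51.8 CPM in ethanol, against 74.5, 51.2 and 76.3 CPM in water, and the groups overlapped through water replicate 2. The log2 fold change was -0.24 (SE 0.18, adjusted p-value 0.257). Without water 7 DAD replicate 2 it was -0.40 (adjusted p-value 0.0715) and was called.

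**Figure D2:**
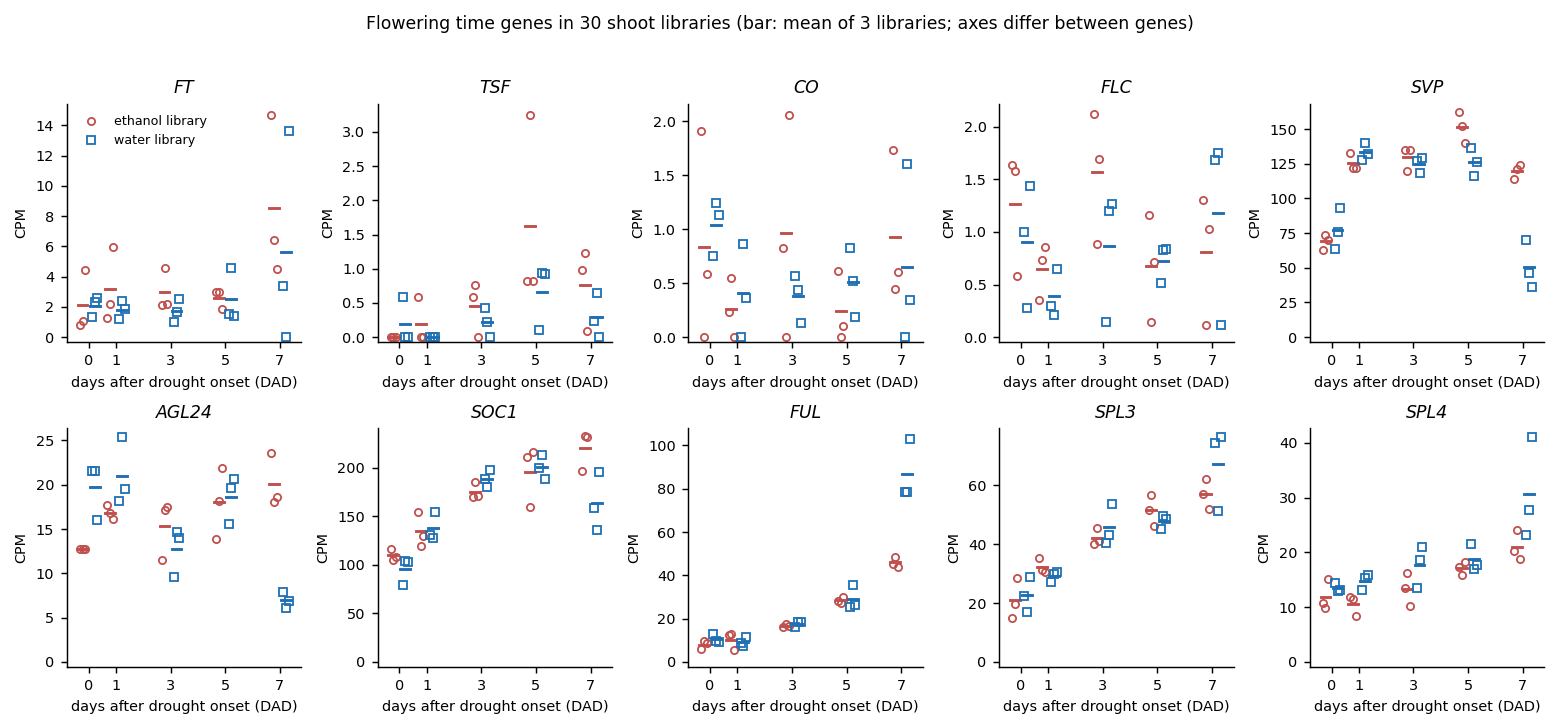
CPM (vertical axis, scaled per gene) of the 10 flowering time genes in all 30 libraries, by days after drought onset (horizontal axis), with circles for ethanol left of squares for water and short lines for the mean of 3 libraries. SVP and AGL24 in water at 7 DAD sit at 36 to 69.8 and 6.06 to 7.92 CPM, below every ethanol library of that day, while FUL in water at 7 DAD sits at 78.3 to 103 CPM, above every other library.

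The next comparisons followed each arm from drought onset. In ethanol, genes called higher than at 0 DAD numbered 2 of the 9 at 1 DAD, 4 at 3 DAD, 5 at 5 DAD and 7 at 7 DAD, and 0 were lower. All tested genes were called higher in 9.35%, 13%, 16.8% and 22% of cases at these days, and lower in 8.9%, 11.6%, 16.4% and 19.5%. In water, 2 of the 9 were called higher at 1 DAD, 4 at 3 DAD, 4 at 5 DAD and 4 at 7 DAD, beside 5.81%, 9.25%, 16.2% and 34.5% of all genes. AGL24 was called lower in water at 3 DAD, beside 10.4% of all genes, and AGL24 and SVP were called lower at 7 DAD, beside 35.5% of all genes. At 7 DAD in water the 4 genes called higher were SOC1, FUL, SPL3 and SPL4, and in ethanol the 7 were these 4 with SVP, AGL24 and FT. The comparisons of an arm share its 0 DAD libraries, and those at 7 DAD share libraries with the comparison of the arms.

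FUL had the largest changes from onset among the 9 tested genes at 7 DAD in both arms. Its mean level over the ethanol course was 8.02, 10.3, 16.6, 28.5 and 45.9 CPM from 0 DAD to 7 DAD, and over the water course it was 10.7, 9.13, 17.6, 29 and 86.6 CPM. The level at 7 DAD was above that at 0 DAD by a log2 fold change of 2.50 in ethanol (SE 0.23, adjusted p-value 1.6e-09) and of 3.01 in water (SE 0.22, adjusted p-value 8.9e-13). Among the members, FUL had the most separated group levels. Of the 9 neighbouring pairs in the order of its 10 group means, 5 overlapped, against 7 to 9 in the other members. The same count was not made over all tested genes, so whether it is unusual cannot be said. Water 7 DAD, ethanol 7 DAD, the 5 DAD groups and the 3 DAD groups followed each other without overlap between these steps.

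SPL3 was called higher than at onset in both arms from 3 DAD on, and at 1 DAD in ethanol. At 7 DAD its log2 fold change against 0 DAD was 1.40 in ethanol (SE 0.19, adjusted p-value 1.1e-06) and 1.56 in water (SE 0.19, adjusted p-value 1.89e-08). The 1 DAD value in ethanol, 0.58 (SE 0.19, adjusted p-value 0.0429), was not called without ethanol 0 DAD replicate 1 or 2 or ethanol 1 DAD replicate 1, and ranged from 0.40 to 0.89 over the alternatives. In water the 1 DAD value of SPL3 was 0.35 (SE 0.19, adjusted p-value 0.28). Between the arms at 1 DAD its log2 fold change was 0.15, not called. SPL4 rose at 7 DAD, by 0.79 in ethanol (SE 0.22, adjusted p-value 0.00615) and by 1.18 in water (SE 0.21, adjusted p-value 1.74e-05). At 5 DAD its values were 0.50 in ethanol (adjusted p-value 0.102) and 0.46 in water (adjusted p-value 0.108).

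SOC1 rose to 221 ± 20.7 CPM in ethanol at 7 DAD, against 109 ± 5.8 CPM in ethanol at 0 DAD (SD, n = 3 each). The log2 fold change was 1.01 (SE 0.14, adjusted p-value 1.17e-06). In water it stood at 164 ± 30.4 CPM at 7 DAD, against 95.1 ± 13.8 CPM at 0 DAD, and the log2 fold change was 0.79 (SE 0.14, adjusted p-value 1.25e-05). The highest water mean of SOC1 was at 5 DAD, with 201 ± 11.8 CPM, and the libraries of that group overlapped those of water 7 DAD. In water SOC1 was already called at 1 DAD (0.54, SE 0.14, adjusted p-value 0.0108), a call that was lost without water 0 DAD replicate 1 (adjusted p-value 0.104). In ethanol the 1 DAD value of SOC1 was 0.30 (SE 0.14, adjusted p-value 0.163), not called. Between the arms at 1 DAD its log2 fold change was -0.04, also not called.

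SVP rose within 1 day in both arms. It had 133, 122 and 122 CPM in ethanol at 1 DAD, against 62.9, 73.9 and 70.1 CPM in ethanol at 0 DAD. In water it had 128, 140 and 132 CPM at 1 DAD, against 63.6, 75.8 and 93.3 CPM at 0 DAD. Neither arm showed overlap between its days, and the log2 fold changes were 0.86 in ethanol (SE 0.16, adjusted p-value 0.000256) and 0.78 in water (SE 0.15, adjusted p-value 0.00124). Clock markers also changed between 0 and 1 DAD in both arms, as given below, and their part was not tested. SVP stayed above its 0 DAD level in both arms through 5 DAD, at log2 fold changes of 1.13 in ethanol and 0.70 in water. At 7 DAD ethanol was still higher than at 0 DAD (0.80, SE 0.16, adjusted p-value 0.000169), whereas water was lower (-0.61, SE 0.16, adjusted p-value 0.00111). The water libraries of 7 and 0 DAD overlapped, since water 7 DAD replicate 1 with 69.8 CPM was above water 0 DAD replicate 1 with 63.6 CPM.

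AGL24 in ethanol was called higher than at onset at 5 DAD (0.50, SE 0.21, adjusted p-value 0.0824) and at 7 DAD (0.66, SE 0.21, adjusted p-value 0.0146). The 5 DAD call was lost in 9 of 14 alternatives, 5 of which left out 1 library. The libraries concerned were the 3 of ethanol 0 DAD and replicates 2 and 3 of ethanol 5 DAD. In water it fell at 3 DAD (-0.62, SE 0.20, adjusted p-value 0.0369), was at -0.08 at 5 DAD (adjusted p-value 0.819), and fell at 7 DAD (-1.50, SE 0.21, adjusted p-value 5.03e-07). The 3 DAD call was lost without water 0 DAD replicate 1 or 2 or water 3 DAD replicate 1, while the 7 DAD call held in all 14 alternatives.

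**Figure D3:**
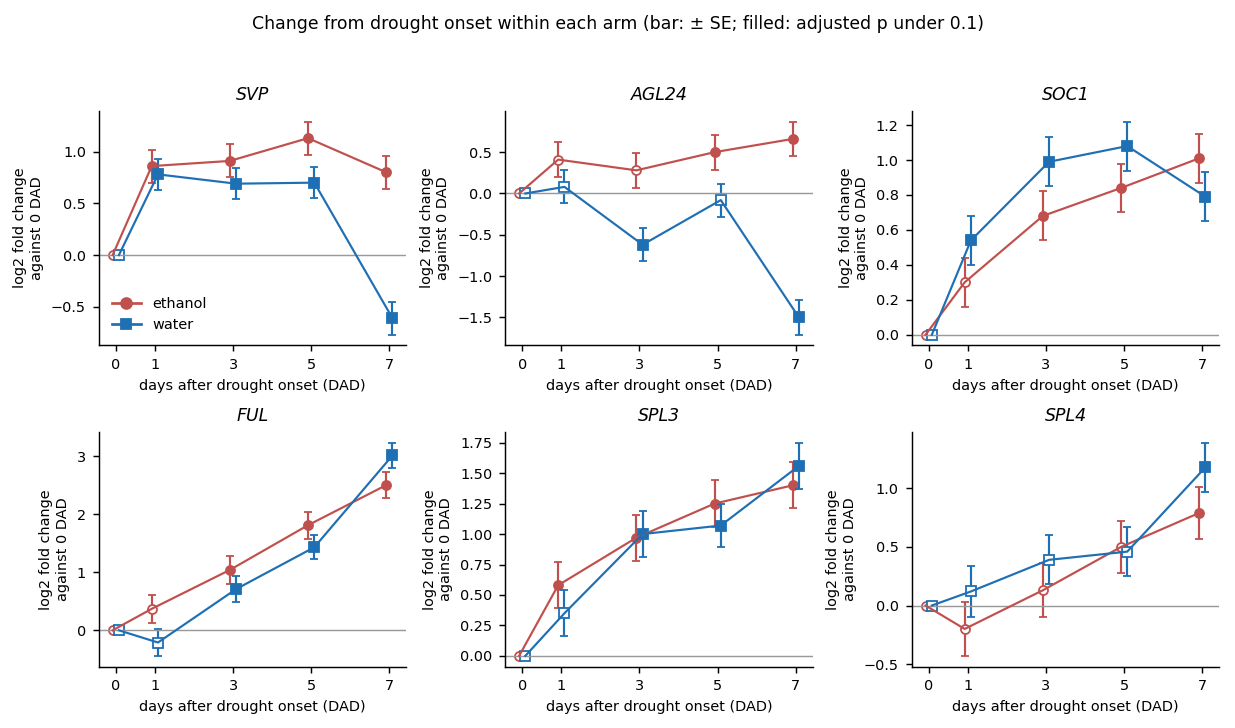
Log2 fold change against 0 DAD of the same arm (vertical axis, ± 1 standard error) for 6 flowering time genes by days after drought onset (horizontal axis), with red circles for ethanol, blue squares for water and filled points for an adjusted p-value under 0.1. SVP and AGL24 end at 0.80 and 0.66 in ethanol and at -0.61 and -1.50 in water, whereas SOC1, FUL, SPL3 and SPL4 end above 0 in both arms.

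The difference between the arms in the change from 0 to 7 DAD was tested itself. It was called for 2 of the 9 genes, both with the more positive change in ethanol, beside 27.6% of all genes in that direction. The difference was 2.16 on the log2 scale for AGL24 (SE 0.30, adjusted p-value 9.52e-07) and 1.41 for SVP (SE 0.22, adjusted p-value 5.89e-06). Both calls held in all 20 alternatives, at 2.05 to 2.37 for AGL24 and 1.21 to 1.71 for SVP. FUL had a difference of -0.51 (SE 0.31, adjusted p-value 0.198), SPL4 of -0.40 (SE 0.31, adjusted p-value 0.311), SPL3 of -0.17 (SE 0.26, adjusted p-value 0.643) and SOC1 of 0.23 (SE 0.19, adjusted p-value 0.364). FUL was called without ethanol 0 DAD replicate 1 (-0.67, adjusted p-value 0.0981) and without water 0 DAD replicate 1 (-0.69, adjusted p-value 0.0957). SOC1 was called when libraries were scaled by their totals alone (0.42, adjusted p-value 0.0722).

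FT, the florigen gene, was measured at low depth, with 0 to 136 counts per library and a median of 19. At 7 DAD it had 14.7, 6.4 and 4.48 CPM in ethanol, against 3.36, 0 and 13.6 CPM in water. In water these values are 28, 0 and 119 counts, so that a library with no read stood beside the one with the second-highest level of all 30, and the groups overlapped. A count of 0 in water replicate 2 allows a level of up to 0.479 CPM at 3 counts. The log2 fold change was 0.57 (SE 0.74, adjusted p-value 0.539), and without water 7 DAD replicate 3 it was 2.26 and called (adjusted p-value 0.0271). Over all alternatives it ran from -0.07 to 2.26.

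Against 0 DAD, FT was called higher at 7 DAD in ethanol (1.85, SE 0.81, adjusted p-value 0.077). It had there 14.7, 6.4 and 4.48 CPM at 7 DAD, against 0.82, 1.06 and 4.45 CPM at 0 DAD, where the first 2 libraries hold 3 and 4 counts. The highest 0 DAD library was just under the lowest 7 DAD library. The call was lost without ethanol 0 DAD replicate 1 or 2 or ethanol 7 DAD replicate 1, and the value ranged from 1.19 to 3.16 over the alternatives. In water the change was 1.47 (SE 0.79, adjusted p-value 0.104), and it was called without water 7 DAD replicate 2 (2.03, adjusted p-value 0.0111), the library with no FT read, and without replicate 1 (1.74, adjusted p-value 0.0782). With all libraries it was also called by DESeq2 (adjusted p-value 0.0819), with RLE factors (adjusted p-value 0.0977) and without the low-count filter (adjusted p-value 0.0871). Without water 7 DAD replicate 3, the library with 119 counts, the value was -0.23. The difference of these changes between the arms was 0.38 (SE 1.13, adjusted p-value 0.818).

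TSF, the closest relative of FT, had 117 counts in all 30 libraries together, and 13 libraries were at 0. Its highest levels were 0.816, 3.25 and 0.822 CPM in ethanol at 5 DAD, against 0.104, 0.931 and 0.93 CPM in water at 5 DAD. The groups overlapped. All ethanol 0 DAD libraries were at 0. Set against 3 counts over that group, the pooled level was 7.17-fold higher at 5 DAD and 3.76-fold higher at 7 DAD. These ratios rest on 42 and 21 counts, and they leave out the counting error of those counts. Of the 42 counts, 22 came from ethanol 5 DAD replicate 2, and ethanol 7 DAD replicate 3 held 1 count. The filter removed TSF, and in an edgeR fit of 24789 genes without that filter the adjusted p-value between the arms was 1 at 5 DAD and 0.476 at 7 DAD. Against ethanol 0 DAD it was 0.0291 at 5 DAD and 0.0716 at 7 DAD, both called. In water against water 0 DAD it was 0.532 at 5 DAD and 0.945 at 7 DAD, neither called. The difference between the arms in the change from 0 to 7 DAD was not called in that fit either (adjusted p-value 0.16).

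CO, the photoperiod activator of FT, had 156 counts in all and was at 0 in 6 libraries. Its levels ran from 0 to 2.06 CPM, and all neighbours in the order of its group means overlapped. FLC, the vernalization-sensitive repressor, had 234 counts in all and ran from 0.112 to 2.12 CPM. It is known for low expression in Col-0, which carries a non-functional FRI allele. At 7 DAD the log2 fold change was 0.59 for CO (SE 1.19, adjusted p-value 0.702) and -0.49 for FLC (SE 0.86, adjusted p-value 0.652). With standard errors near 1 on the log2 scale at 7 DAD, a 2-fold difference in either gene was not detectable at this depth.

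The members were also compared with each other and with all other genes over the 10 group means of log2 CPM. These correlations describe 10 points that come from the same libraries for both genes. Among members with a mean of at least 10 counts, FUL was most like SPL4 (r = 0.93) and SPL3 (r = 0.91), SOC1 was most like SPL3 (0.88), and SVP was most like AGL24 (0.72). AGL24 and SPL4 had the lowest value, -0.49. Outside the members, the 3 genes most like SVP were DES1, PUM4 and UMAMIT46 (0.985 to 0.986), and those most like AGL24 were AT1G04660, TOC120 and MS2 (0.967 to 0.983). The nearest to SOC1 were AT4G14815, AT5G57815 and AT1G77200 (0.969 to 0.972), and to FUL AT5G15500, G6PD6 and AT1G43770 (0.982 to 0.983). SPL3 was nearest to AT4G28397, GolS2 and APO3 (0.982 to 0.987), and SPL4 to AT1G27530, RGP5 and AT1G16515 (0.967 to 0.973). FT had AT2G28315, AT1G13635 and MYB61 (0.922 to 0.934). For the low genes CO and FLC the values were lower, with AT3G18940, EIF2 and OPR2 for CO (0.873 to 0.903) and LOX3, AT1G11960 and AT5G10695 for FLC (0.829 to 0.855).

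Other genes of the flowering pathways were taken from 7 lists, each described at 7 DAD by its calls and its median log2 fold change of ethanol over water. Over all tested genes the median was 0.05, with 32% called higher and 28.6% lower, and several of the list counts lie near these shares. Of 8 AP2-like and RAV repressors of FT, 2 were higher and 3 lower in ethanol, with a median of -0.35. TEM2, a RAV-type repressor of FT, had 73.2, 32.4 and 80.3 CPM in ethanol, against 6, 9.41 and 5.81 CPM in water (log2 fold change 3.15, SE 0.30, adjusted p-value 6.6e-10). SNZ, an AP2-like repressor, averaged 16.8 ± 7.14 CPM in the ethanol libraries, against 59.6 ± 10.5 CPM in the water libraries (SD, n = 3 each), and its log2 fold change was -1.83 (adjusted p-value 1.7e-07). In this list the 2 named genes thus moved in opposite directions.

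In the photoperiod list all 18 genes were tested, and 5 were higher and 8 lower in ethanol, with a median of -0.30. FKF1, the blue-light receptor that targets CDF proteins for degradation, had 2.1 ± 0.762 CPM in the ethanol libraries, against 12.1 ± 3.04 CPM in the water libraries, and was lower (-2.52, SE 0.31, adjusted p-value 5.33e-08). CDF2, a DOF repressor of CO, had 11.7 ± 1.49 CPM in the ethanol libraries, against 57.5 ± 11.4 CPM in the water libraries (SD, n = 3 each), and was also lower (-2.29, SE 0.23, adjusted p-value 1.56e-09). In the list of FLC relatives, autonomous and vernalization genes, 17 of 18 were tested, 1 was higher and 6 were lower, with a median of -0.16. VRN2, a Polycomb protein that keeps FLC silent after cold, was at -1.27 (SE 0.18, adjusted p-value 5.74e-07), and FPA, an RNA-binding protein of the autonomous pathway, was at -0.99 (SE 0.20, adjusted p-value 0.000145).

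The 6 other SPL genes had a median of 0.61, with 2 called higher and 0 lower. SPL9 had 35.1, 31.2 and 27.1 CPM in ethanol, against 9.72, 5.74 and 9.92 CPM in water (1.86, SE 0.25, adjusted p-value 3.42e-07). SPL15 had 5.2, 1.68 and 4.4 CPM in ethanol, against 0.6, 1.91 and 0.456 CPM in water, with overlap, and was called higher as well (1.98, SE 0.61, adjusted p-value 0.00735). SPL2, SPL10 and SPL11 carry the same coding site as SPL9 and SPL15 and were not called, at 0.49 (adjusted p-value 0.107), 0.27 (adjusted p-value 0.478) and 0.74 (adjusted p-value 0.102). SPL5, with its site in the 3′ UTR as in SPL3 and SPL4, was not called either (0.41, adjusted p-value 0.437).

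Among 6 tested genes of the FT/TFL1 family and FT partners, 2 were higher and 2 lower, with a median of 0.17. MFT, a family member known from seed germination, had 0.108, 2.47 and 0.948 CPM in ethanol, against 14.8, 21.9 and 22.2 CPM in water (-4.06, SE 0.87, adjusted p-value 0.000256). FD, the bZIP partner of FT at the apex, had 7.91, 1.68 and 5.95 CPM in ethanol, against 0.84, 1.12 and 0.57 CPM in water (2.64, SE 0.49, adjusted p-value 4.24e-05). Both genes separated the groups, on 34 counts for MFT in ethanol and 19 counts for FD in water.

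Of 8 SOC1 relatives and meristem identity genes 5 were tested, 2 higher and 2 lower, with a median of -1.13 that was 1.43 among those with a mean of at least 10 counts. The 2 lower genes were AGL19 (-2.33, adjusted p-value 0.0434) and AGL42 (-1.19, adjusted p-value 0.00544). AP1, which marks floral meristems, had 33 ± 5.31 CPM in the ethanol libraries, against 12.1 ± 2.84 CPM in the water libraries (SD, n = 3 each), and was higher (1.44, SE 0.27, adjusted p-value 4.53e-05). CAL, its close relative, had 1.76 (SE 0.88, adjusted p-value 0.0919), with overlapping groups, and lost its call without ethanol 7 DAD replicate 1 or 2 or water 7 DAD replicate 2 or 3. Of 14 gibberellin genes 11 were tested, with 6 higher, 1 lower and a median of 1.49. GA2OX1 had 8.13, 13.2 and 13.9 CPM in ethanol, against 1.2, 0.479 and 0.228 CPM in water (4.17, SE 0.49, adjusted p-value 2.39e-08). GA2OX6 had 2.17, 5.16 and 2.07 CPM in ethanol, against 29.5, 35.7 and 35.8 CPM in water (-3.43, SE 0.53, adjusted p-value 2.74e-06). Both encode enzymes that inactivate gibberellins, and they differed in opposite directions.

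**Figure D4:**
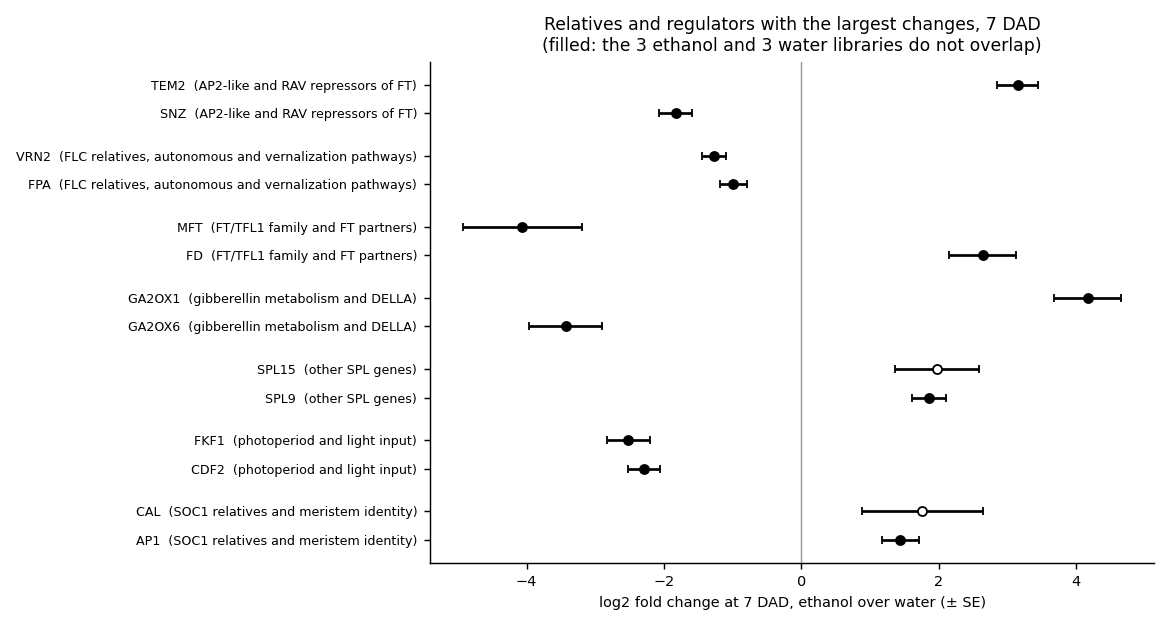
Log2 fold change of ethanol over water at 7 DAD (horizontal axis, ± 1 standard error) for the 2 called genes with the largest change in each of 7 flowering lists, with open points where the 3 ethanol and 3 water libraries overlap. Only genes with a mean of at least 10 counts were eligible, which leaves out AGL19 of the SOC1 relatives (-2.33). Values run from -4.06 for MFT to 4.17 for GA2OX1, and the 2 plotted genes point in opposite directions in 3 of the 7 lists.

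Markers of cell types and of harvest time moved with the same groups, and their part in the results above was not tested. At 7 DAD the summed level of the 5 leaf markers was 30700 to 35500 CPM in ethanol, against 4750 to 8420 CPM in water, and all 5 were called higher in ethanol. The 3 phloem companion cell markers, which mark the cells that make FT, summed to 385 to 476 CPM in ethanol, against 1030 to 1200 CPM in water, and all 3 were called lower. The 4 shoot apex markers summed to 85.3 to 128 CPM in ethanol, against 22 to 50.7 CPM in water. STM and KNAT1 of this list were called higher, WUS was not (1.18, adjusted p-value 0.343), and CLV3 was at 0 in 26 of 30 libraries.

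The 6 floral organ markers summed to 203 to 264 CPM in ethanol at 7 DAD, against 90.8 to 211 CPM in water, with 4 of 6 called higher. At 0 DAD these markers summed to 17.4 to 23.2 CPM in ethanol, against 10.2 to 29.2 CPM in water. The floral organ markers were thus higher at 7 DAD than at 0 DAD in all libraries of both arms. SOC1, FUL, SPL3 and SPL4 were also called higher at 7 DAD than at 0 DAD in both arms.

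The labels give no time of day for the harvests. The 5 evening clock markers summed to 319 to 355 CPM in ethanol and 268 to 325 CPM in water at 3 DAD, above all other days. At 0 DAD they were at 135 to 170 CPM in ethanol, against 87.3 to 102 CPM in water, with 2 of 5 called higher in ethanol. At 1 DAD they were at 46.5 to 57 CPM in ethanol and 37.4 to 58.5 CPM in water. Of the 5, 4 in ethanol and 3 in water were called lower at 1 DAD than at 0 DAD. At 7 DAD they were at 55.7 to 66.6 CPM in ethanol, against 96.6 to 149 CPM in water, with 4 of 5 called lower in ethanol. The 4 morning clock markers were at 106 to 126 CPM in ethanol, against 224 to 318 CPM in water at 7 DAD, with 3 of 4 called lower. At 0 DAD the morning markers were at 31.9 to 38.8 CPM in ethanol, against 45.2 to 52.9 CPM in water, with 1 of 4 called lower. At 1 DAD these markers were at 67.6 to 82.1 CPM in ethanol and 78.5 to 79.3 CPM in water. In each arm 3 of 4 were called higher at 1 DAD than at 0 DAD. Clock markers thus differed between the arms at 0 and 7 DAD, and not only between days. CO, FKF1 and the CDF genes are known to follow the time of day.

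**Figure D5:**
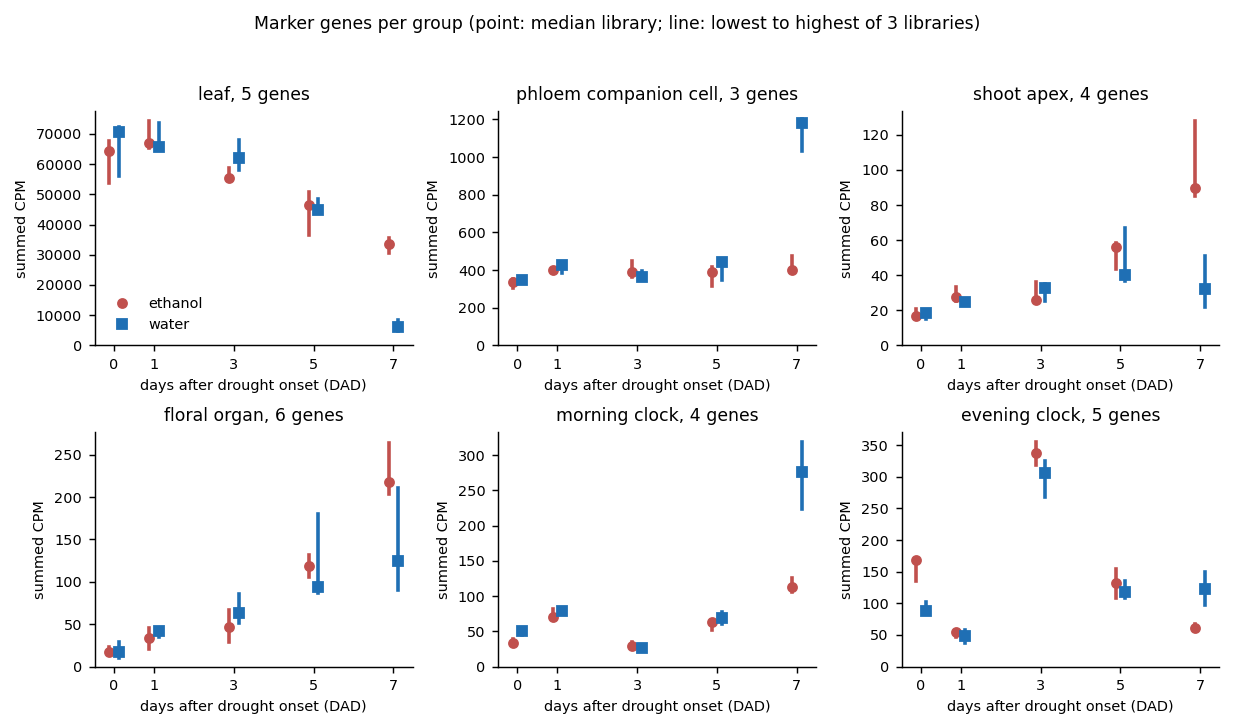
Summed CPM (vertical axis, scaled per panel) of 6 marker lists by days after drought onset (horizontal axis), with red for ethanol left of blue for water, points for the median library and lines from the lowest to the highest of 3 libraries. At 7 DAD leaf markers lie at 30700 to 35500 CPM in ethanol and 4750 to 8420 CPM in water, and companion cell markers at 385 to 476 CPM in ethanol and 1030 to 1200 CPM in water.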

How the data were processed

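RNA was measured by Lasy-Seq in 30 shoot libraries. The authors trimmed reads with Trimmomatic, mapped them to TAIR10 with HISAT2 and counted them per gene, introns included and by strand, with featureCounts. The deposited count table holds these raw counts, and the deposited normalised signal is each count divided by a DESeq2 size factor. The signal served for ratios of group means only. Groups came from the treatment labels of the samples, and the sample titles matched the columns of counts to samples. Counts of 27417 genes were filtered with filterByExpr, scaled by TMM (factors 0.915 to 1.16) and fitted in edgeR 4.0.16 (R 4.3.3) by quasi-likelihood over all libraries, with Benjamini-Hochberg adjustment over 19249 genes and a threshold of 0.1. The procedure was tested on simulated data. Depth was 3625884 to 14735127 counts, and floors of 3 counts cover counting error only.

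Alternatives were DESeq2 1.42.0, RLE factors, library totals, no filter, a mean of at least 10 counts, a threshold of 0.05, the compared groups alone, a replicate block and each library left out. Named genes were the 10 members, the 3 most correlated genes of each tested member, and from each list the 2 called genes with the largest change at 7 DAD among those with a mean of at least 10 counts. The remaining SPL genes and 2 SOC1 relatives are named beside them. Members and lists were chosen with earlier results of these data known. No member overlapped another gene on its strand in RefSeq TAIR10.1, and 4 overlapped genes on the other strand (CO 2, and FLC, SPL3 and SPL4 1 each).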

Additional observations from a re-analysis of the deposited data

Results flagged for a closer look

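The change from 0 to 7 DAD differed between ethanol and water in 2 of the 9 tested flowering time genes by a test of the difference itself (edgeR interaction contrast). For SVP the difference was 1.41 on the log2 scale (SE 0.22, adjusted p-value 5.89e-06), with a change of 0.80 in ethanol and of -0.61 in water. For AGL24 it was 2.16 (SE 0.30, adjusted p-value 9.52e-07), with a change of 0.66 in ethanol and of -1.50 in water. Of all tested genes 27.6% were called in the same direction. The AGL24 value contains the gap between the arms at 0 DAD, -0.63 in ethanol against water. Clock markers also differed between the arms at 0 and 7 DAD, and their part in these differences was not tested.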

How the results depend on the processing

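Of 42 called results of the flowering time genes 36 kept their call in every alternative, 6 lost it in at least 1, and none of them reversed. Of 84 uncalled results 9 gained a call somewhere. The 48 ratios of group means from the normalised signal all stayed within the spread between libraries. The calls that were lost belong to AGL24 (ethanol 5 DAD and water 3 DAD), FT (ethanol 7 DAD), SOC1 (water 1 DAD), SPL3 (ethanol 1 DAD) and SPL4 (ethanol against water at 7 DAD). The cause was not tested. With 1 library left out, the number of flowering time genes called between the arms at 7 DAD was 4 to 6 (5 with all libraries), and it was 1 to 3 (2 with all libraries) at 1 DAD against 0 DAD in either arm. Among all genes, ethanol against water at 0 DAD gave 330 calls, but 571 with DESeq2, 143 at a threshold of 0.05, 83 with the compared groups alone (60 higher, 23 lower) and 71 to 346 with 1 library left out. At 3 DAD it gave 191 calls, but 125 at a threshold of 0.05 and 43 to 311 with 1 library left out. At 5 DAD it gave 0 calls with edgeR (783 genes at an unadjusted p-value under 0.05), but 13 with DESeq2, 5 without the filter, 5 with the compared groups alone and 0 to 4 with 1 library left out. Water at 1 DAD against 0 DAD gave 2480 calls and 1413 to 2496 with 1 library left out. At 1 DAD ethanol against water gave 0 calls with edgeR (587 genes at an unadjusted p-value under 0.05) and 0 with DESeq2. The median of the SOC1 relatives was -1.13, and 1.43 with a mean of at least 10 counts.

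Scaled by library totals rather than TMM, the median over all genes shifted by 0.21 for ethanol against water at 7 DAD, and the share of calls that were higher was 63% in place of 52.8%. At 7 DAD against 0 DAD in ethanol the shift was 0.22 and the share 70.5% in place of 53%. At 5 DAD against 0 DAD the shift was 0.15 in both arms, with shares of 65.7% in place of 50.6% in ethanol and 64.8% in place of 49.2% in water. SPL4 was then called at 5 DAD (0.65 in ethanol, adjusted p-value 0.0275, and 0.61 in water, adjusted p-value 0.0289).

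Replicate numbers did not pair the libraries: deviations of same-numbered libraries correlated at -0.108 to 0.212, and 13 of 39 correlated best with their own number. With the replicate number as a block (replicate block) the number of flowering time genes called was the same in all 14 comparisons, 5 of 9 for ethanol against water at 7 DAD, and 2 genes of all were called at 5 DAD in place of 0.

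CO, FLC and TSF had 156, 234 and 117 counts over all libraries, and depth limits what can be said of them and of FT.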

Other observations

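Within the arms, the other flowering lists can be set beside the members at 7 DAD against 0 DAD. Of the 6 other SPL genes 5 were called higher in ethanol (median log2 fold change 1.61) and 2 in water (median 0.54), and 0 were lower in either arm. Of the 5 tested SOC1 relatives and meristem identity genes 3 were called higher in ethanol (median 2.31) and 4 in water (median 3.38). Of the 18 photoperiod genes 8 were higher and 3 lower in ethanol (median 0.24), against 12 higher and 2 lower in water (median 0.94). The 11 tested gibberellin genes gave 6 higher and 2 lower in ethanol (median 1.24), against 4 higher and 5 lower in water (median -0.80). Of all tested genes 22% were called higher and 19.5% lower in ethanol (median 0.02), against 34.5% higher and 35.5% lower in water (median -0.01). Several list counts lie near these shares, and the difference in these counts between the arms was not tested.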
